A study of Mus musculus with 6 samples.

Results

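The 10 genes described here encode the receptor BDCA-2 (CLEC4C), the signalling proteins that carry its signal and that of the B cell receptor (FCER1G, CD79B, SYK, LYN, BTK, BLNK and PLCG2), and a pair of proteins that serve antibody secretion (IGJ and MZB1). They were chosen by symbol, and all 10 were found among the 13892 rows of the deposited expression table. Human acute myeloid leukemia (AML) driven by NPM1c, a mutant nucleophosmin, had been grown in 3 NSG mice, an immunodeficient strain that received transduced human hematopoietic stem cells. Each of the 3 mice came from its own transduction and was moribund when its bone marrow was taken. From each marrow a bulk leukemic population, positive for GFP and CD33, and a leukemic stem cell (LSC) population, positive for CD123 as well, were sorted, so that each group had 3 libraries and equal numbers mark 1 mouse. All 6 libraries thus share the NPM1c transgene, which GFP reports. The bulk gate says nothing of CD123, and the sources used here do not name the promoter of the transgene.

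BDCA-2 is a C-type lectin on the surface of plasmacytoid dendritic cells, the cells known for releasing large amounts of type I interferon. It has no signalling motif of its own and pairs with the FCER1G chain, whose immunoreceptor tyrosine-based activation motif (ITAM) recruits the kinase SYK. SYK then acts through the scaffold BLNK, the kinase BTK and the phospholipase PLCG2, a chain of the same make as that behind the B cell receptor, and in plasmacytoid dendritic cells this signal is known to damp interferon release.

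The libraries held 10669560 to 14933494 reads, of which 27.2% to 70.0% lay on 10 MTRNR2L rows. The remainder was smallest in bulk replicate 1, where 1 read is worth 0.171 CPM (the authors' unit of reads scaled by normalized library size), against 0.0634 to 0.0847 CPM elsewhere. The gene of the sorted marker CD123, IL3RA, stood at 1.54 to 2.37 CPM in bulk and 48.0 to 140 CPM in LSC libraries, and CD33 at 4.45 to 13.1 CPM and 1.17 to 8.05 CPM. NPM1, whose reads cannot be divided between the transgene and the resident gene, stood at 733 to 911 CPM in bulk and 323 to 516 CPM in LSC. Of 13755 genes tested with limma over all 6 libraries, 2.71% were higher and 1.33% lower in LSC at an adjusted p of 0.05. With the mouse as a block the shares were 8.25% and 7.71%.

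The receptor, its adaptor and the joining chain rose in LSC, while the kinases SYK and BTK passed in neither fit. CLEC4C, FCER1G and IGJ were higher by limma, which is 3 of 10 members, against 4.04% of all tested genes called in either direction, and 7 did not pass. No member was called lower by limma or by voom, and at an unadjusted p under 0.05 the count was 1, PLCG2. With the mouse as a block LYN, BLNK and MZB1 passed as higher too and PLCG2 as lower, which makes 6 higher and 1 lower, against 16% of all tested genes. LSC and bulk libraries did not overlap for 7 of the 10 members (6 above, 1 below), against 25.2% of all tested genes (13.2% above, 11.9% below). The median log2 change of the 10 members was 1.67, against 0.00 over all tested genes. By mouse that median was 2.18, 1.86 and 0.51 in mice 1, 2 and 3. These are bulk RNA samples of sorted cells, in which more cells of a type and more RNA per cell cannot be told apart.

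**Figure D1:**
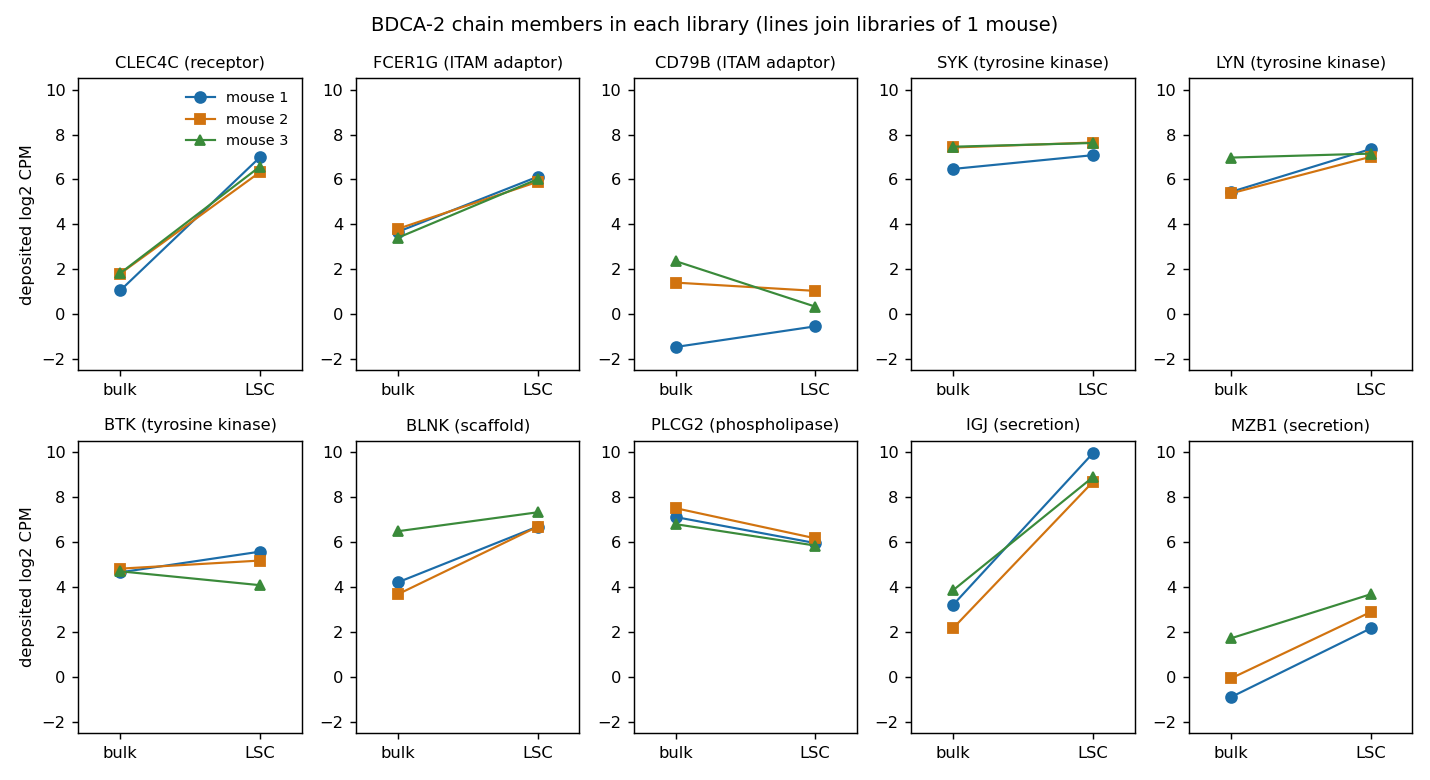
Deposited log2 CPM of each of the 10 members in the bulk and LSC library of each mouse, with 1 line per mouse and 1 shared axis range. CLEC4C, FCER1G and IGJ rise steeply in all 3 mice, PLCG2 is lower in all 3, and for BLNK and LYN the bulk library of mouse 3 already lies near the LSC libraries.

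The receptor gene CLEC4C was low in every bulk library, at 2.05, 3.47 and 3.52 CPM in replicates 1, 2 and 3 (12, 41 and 55 reads). In the LSC libraries it stood at 127, 80.1 and 95.1 CPM (1716, 1264 and 1304 reads), so that the lowest LSC library lay far above the highest bulk library. Its mean rose from 3.02 ± 0.832 to 101 ± 23.8 CPM (SD, n = 3), a log2 change of 5.07 (SE 0.37, limma adjusted p = 0.00048). The increase was 61.7-fold, 23.1-fold and 27.0-fold in mice 1, 2 and 3. Population accounted for 98.4% of the sum of squares of its log2 values and mouse for 0.0874%, shares not adjusted for the number of groups. Over 6 libraries the genes with the most similar centred log2 CPM were DAB2, an endocytic adaptor, the dendritic cell transcription factor IRF8, and CCDC50. Their root mean square differences from CLEC4C were 0.33, 0.38 and 0.38 on the log2 scale, out of 11826 genes compared.

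FCER1G, the ITAM chain shared by BDCA-2 and several Fc receptors, rose as well. It measured 12.7, 13.9 and 10.6 CPM in bulk libraries of mice 1, 2 and 3, and 69.5, 59.5 and 64.4 CPM in the LSC libraries. Both groups were tight and did not overlap. The means were 12.4 ± 1.69 and 64.4 ± 4.998 CPM (SD, n = 3), and the log2 change was 2.39 (SE 0.29, limma adjusted p = 0.00336). It rose 5.48-fold, 4.28-fold and 6.10-fold in mice 1, 2 and 3. Its call was lost when both libraries of mouse 1 or of mouse 2 were left out (adjusted p = 0.1004 and 0.0502), while the log2 change stayed at 2.35 and 2.53.

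Receptor and adaptor were then compared within each library. The log2 ratio of CLEC4C to FCER1G was -2.61, -1.99 and -1.58 in bulk libraries of mice 1, 2 and 3, and 0.87, 0.43 and 0.56 in the LSC libraries, a difference of 2.68. Such a ratio does not depend on the scaling between libraries, and only its difference between populations is read here, since gene lengths were not used. TYROBP, the sister ITAM adaptor also known as DAP12, did not pass the test. It stood at 8.25 to 16.8 CPM in bulk and 14.1 to 24.7 CPM in LSC (log2 change 0.58, SE 0.41, adjusted p = 0.46). The log2 ratio of FCER1G to TYROBP moved from -0.40, -0.17 and 0.35 in bulk to 1.75, 2.07 and 1.38 in LSC, a difference of 1.81. For both ratios every LSC library lay above every bulk library. The exact two-sided permutation test gave p = 0.1 for each, the smallest that 3 libraries against 3 allow, and 0.167 after adjustment over the 5 ratios examined. Here and for the ratios below, that test did not use the pairing of libraries by mouse.

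**Figure D2:**
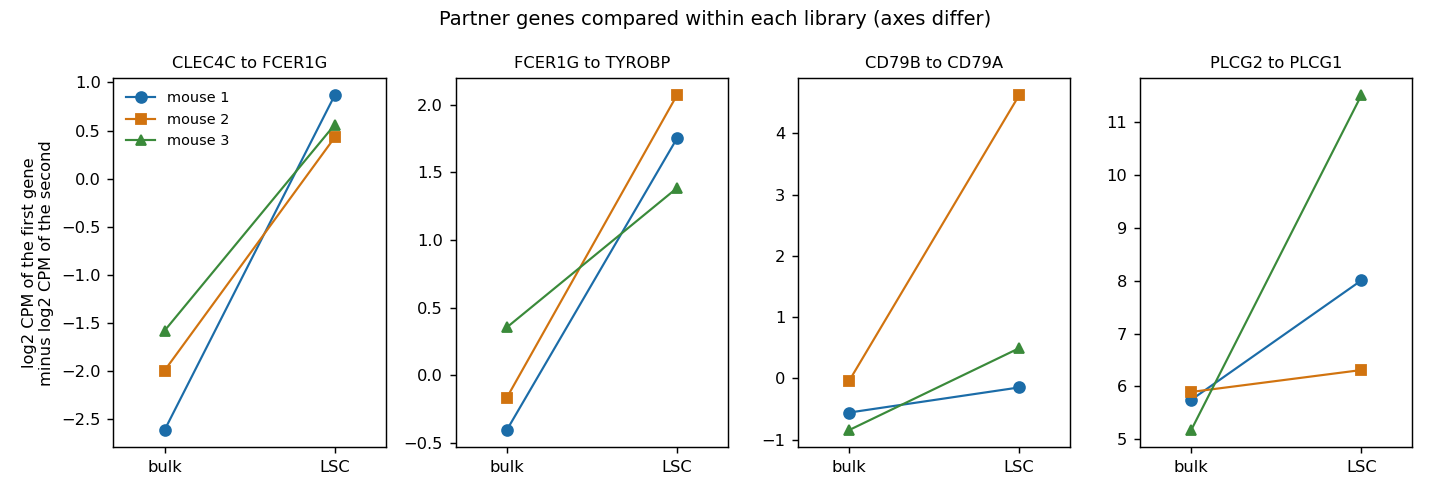
Log2 CPM of the first gene minus log2 CPM of the second within each library, for 4 pairs of partner genes, with 1 line per mouse and a separate axis per pair. CLEC4C to FCER1G and FCER1G to TYROBP are higher in LSC in all 3 mice, by 2.68 and 1.81 on average, while the CD79B and PLCG2 ratios spread widely in LSC, where CD79A or PLCG1 had few reads.

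CD79B, the signalling chain that pairs with CD79A in the B cell receptor, did not share the rise. It had 2, 31 and 80 reads in bulk replicates 1, 2 and 3 (0.342, 2.63 and 5.12 CPM) and 9, 32 and 17 reads in the LSC libraries (0.665, 2.03 and 1.24 CPM). The groups overlapped, and the LSC minus bulk log2 difference was 0.92, -0.37 and -2.03 in mice 1, 2 and 3. Mouse accounted for 73.3% of the sum of squares of CD79B and population for 3.81%, shares not adjusted for the number of groups. Its log2 change was -0.49 (95% interval -2.85 to 1.86, limma adjusted p = 0.824), which leaves a large change in either direction possible at this depth. Without bulk replicate 3 the change turned to 0.30 (adjusted p = 0.909). CD79A had 3, 32 and 144 reads in bulk libraries of mice 1, 2 and 3, and 10, 1 and 12 reads in the LSC libraries. The log2 ratio of CD79B to CD79A differed by 2.14 between populations (exact permutation p = 0.2, adjusted 0.25), and by 0.66 without LSC replicate 2, where CD79A had its single read. Genes with the most similar centred values were TBC1D3, MYO1C and LOC100268168, with root mean square differences of 0.50, 0.53 and 0.56, and TBC1D3 belongs to a family of near-identical copies whose reads can be split.

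Among the kinases SYK, which docks on phosphorylated ITAMs, changed little. It measured 88.5, 172 and 176 CPM in bulk libraries of mice 1, 2 and 3, and 135, 200.2 and 197 CPM in LSC. The groups overlapped, and both libraries of mouse 1 were the lowest of their group. The log2 change was 0.33 (SE 0.34, 95% interval -0.43 to 1.10, limma adjusted p = 0.619), and mouse accounted for 77.4% of the sum of squares. The interval does not reach the change seen for FCER1G, though the difference between the 2 genes was not tested.

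LYN, the Src family kinase that phosphorylates ITAMs, was higher in LSC in each mouse, but barely so in mouse 3. Population accounted for 57.6% of its sum of squares and mouse for 20.7%. Bulk replicates 1 and 2 held 43.5 and 41.6 CPM and bulk replicate 3 held 126 CPM, while the LSC libraries held 163, 129 and 142 CPM. Bulk replicate 3 thus lay just under the lowest LSC library, and the ratio of LSC to bulk was 3.76 and 3.09 in mice 1 and 2 but 1.13 in mouse 3. The log2 change was 1.24 (SE 0.43), which did not pass (limma adjusted p = 0.148) but did with the mouse as a block (0.0336). Without bulk replicate 3 it was 1.76 (adjusted p = 0.0159).

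BTK, the Tec family kinase that activates PLCG2, moved in different directions by mouse. It was even in bulk, at 25.2, 28.2 and 26.0 CPM, and spread in LSC, at 47.7, 36.2 and 16.9 CPM in replicates 1, 2 and 3. LSC libraries were above bulk in mice 1 and 2 and below in mouse 3. The log2 change was 0.22 (SE 0.41, 95% interval -0.69 to 1.13, limma adjusted p = 0.796), and it was -0.09 without LSC replicate 1.

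BLNK, the scaffold that brings BTK and PLCG2 together under SYK, was again high in the bulk library of mouse 3. Its values were 18.5, 12.8 and 89.6 CPM in bulk libraries of mice 1, 2 and 3, and 103, 103 and 161 CPM in LSC. The groups did not overlap, with bulk replicate 3 close beneath the LSC libraries of mice 1 and 2. LSC exceeded bulk 5.59-fold, 8.05-fold and 1.79-fold in mice 1, 2 and 3. The log2 change of 2.11 (SE 0.63) did not pass without the block (limma adjusted p = 0.105) and passed with it (SE 0.37, adjusted p = 0.00792). Without bulk replicate 3 the change was 2.96 (adjusted p = 0.00374). SERPING1, TLR10 and RPL13AP5 had the most similar centred values, at root mean square differences of 0.32, 0.33 and 0.33. RPL13AP5 is a processed pseudogene, whose reads can come from RPL13A.

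PLCG2, the phospholipase at the end of the chain that opens calcium stores, was lower in LSC in each mouse. It measured 139, 183 and 111 CPM in bulk libraries of mice 1, 2 and 3, and 62.1, 72.0 and 57.5 CPM in LSC. Every LSC library lay below every bulk library, and the LSC level was 0.448, 0.394 and 0.516 of the bulk level in mice 1, 2 and 3. The log2 change was -1.15 (SE 0.29), just short of the threshold (limma adjusted p = 0.0605) and past it in the fit with a mouse block (0.00753). PLCG1, the form typical of T cells and many other tissues, was low throughout, at 2.57 to 3.07 CPM in bulk and 0.222, 0.888 and 0 CPM in LSC (adjusted p = 0.141). The log2 ratio of PLCG2 to PLCG1 differed by 3.01 between populations (exact permutation p = 0.1, adjusted 0.167), but by 1.56 without LSC replicate 3, where PLCG1 had no read, and by 0.42 on the log2(CPM + 1) scale.

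Both secretory members were higher in LSC in each mouse, and IGJ passed the test. IGJ, the joining chain that links IgM and IgA units and is also made by plasmacytoid dendritic cells, measured 9.25, 4.49 and 14.5 CPM in bulk libraries of mice 1, 2 and 3, and 996, 411 and 476 CPM in LSC. Groups were far apart, and the lowest LSC library had 6489 reads against at most 227 in bulk. The log2 change of 6.10 (SE 0.48, limma adjusted p = 0.000587) was the largest among the 10 members. The increase was 108-fold, 91.6-fold and 32.8-fold in mice 1, 2 and 3. The nearest patterns were those of SEL1L3, SERPINF1 and DUSP5, at root mean square differences of 0.61, 0.63 and 0.65.

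MZB1, a chaperone of the endoplasmic reticulum that helps antibody chains assemble, was scarce. It had 3, 11 and 51 reads in bulk replicates 1, 2 and 3 (0.514, 0.932 and 3.26 CPM) and 60, 116 and 175 reads in LSC (4.43, 7.35 and 12.8 CPM). In both groups mouse 1 was lowest and mouse 3 highest, and the groups did not overlap. The log2 change was 2.66 (SE 0.77), which missed the threshold without the block (limma adjusted p = 0.0927) and passed with it (adjusted p = 0.0125). Without bulk replicate 3 it was 3.39 (adjusted p = 0.0423). LOC101926924, GPM6B and HSD17B7P2 had the most similar centred values, at root mean square differences of 0.40, 0.42 and 0.47.

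**Figure D3:**
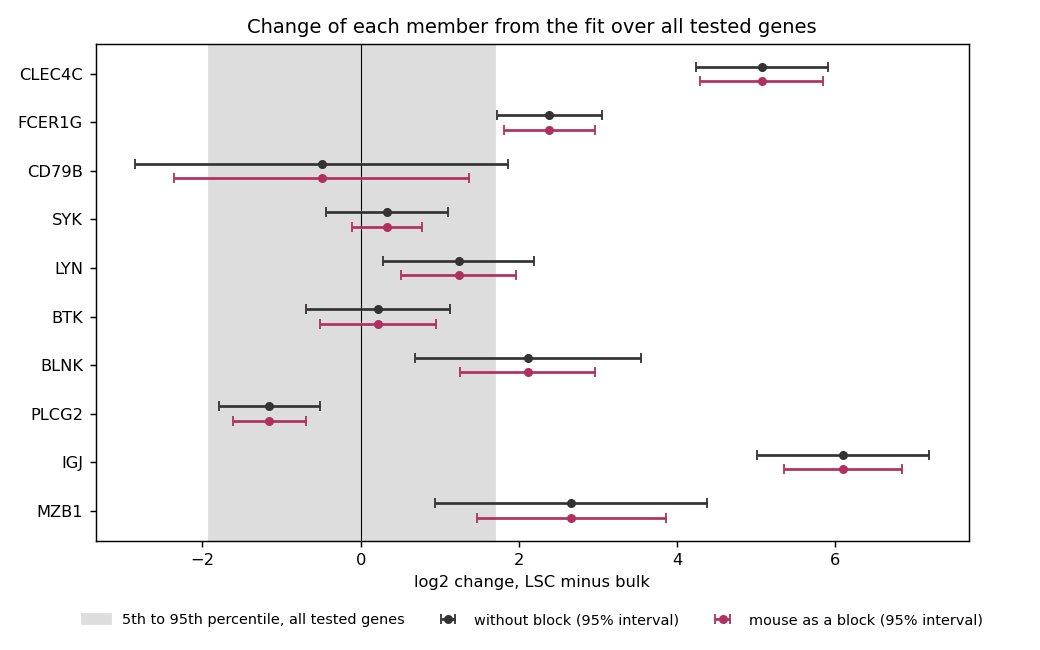
Log2 change of each member, LSC minus bulk, from the limma fit over all tested genes without and with the mouse as a block. Points are estimates, bars are 95% intervals not adjusted for multiple testing, and the grey band spans the 5th to 95th percentile of all tested genes (-1.92 to 1.70). The intervals of CLEC4C, FCER1G and IGJ lie wholly to the right of the band, and those of SYK, BTK and PLCG2 lie within it.

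In the authors' deposited table IGJ and CLEC4C had a false discovery rate of 0.0813 and ranked 18 and 20 by p-value. FCER1G ranked 197 there with a rate of 0.133, and the rates of the other members ran from 0.218 for BLNK to 0.897 for BTK in the authors' deposited table. Its log2 changes, turned to LSC minus bulk, had the same sign as those above for all 10 members. Both come from the same 6 libraries.

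The chain was next set beside its relatives and other gene lists. Counts in each list are to be read beside the shares of all tested genes, 2.71% higher and 1.33% lower. With the block these shares were 8.25% and 7.71%. A list of ITAM receptors, adaptors and related receptors, inhibitory ones such as CLEC4A included, had 19 tested genes outside the members. Of these 1 was higher, 1 was lower and 17 did not pass, with a median log2 change of 0.34 against 0.00 over all tested genes. The higher one was LILRA4, the plasmacytoid dendritic cell receptor ILT7 that also signals through FCER1G. Its reads numbered 1 in all of bulk and 2398 in all of LSC. The lower one was FCGR2A, an Fc receptor with its own ITAM, which fell from 67.6 ± 30.0 to 18.2 ± 6.86 CPM (log2 change -1.86, SE 0.40, limma adjusted p = 0.0363). CLEC4D, a lectin of myeloid cells, and CLEC4A, which carries an inhibitory motif, had log2 changes of -1.95 and 1.19 (adjusted p = 0.11 and 0.126), and both passed with the block (0.0121 and 0.0487). FCER1A, the IgE-binding chain that also pairs with FCER1G, stood at 6.51 to 11.9 CPM in bulk and 6.65 to 19.8 CPM in LSC (adjusted p = 0.549). With the block 3 of these 19 genes were higher and 4 lower. The call of LILRA4 held without any 1 library, while that of FCGR2A held in 1 of the 6 such fits, the one without LSC replicate 2 (adjusted p of up to 0.112).

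Relatives of LYN, SYK and BTK passed in both directions. Of 17 tested Src, Syk and Tec family kinases and their regulators, 1 was higher, 1 was lower and 15 did not pass, with a median log2 change of 0.08. Over all tested genes 2.71% were higher and 1.33% lower. With the block 1 of the 17 was higher and 2 were lower, against 8.25% and 7.71% of all tested genes. SRC rose from 1.03 to 3.98 CPM in the bulk libraries to 9.31 to 12.7 CPM in the LSC libraries (log2 change 2.55, SE 0.58, limma adjusted p = 0.0435). FGR, a Src family kinase of myeloid cells, fell from 63.0 ± 16.9 to 23.2 ± 3.38 CPM (log2 change -1.41, adjusted p = 0.0445). TEC, which is the namesake of BTK's family, had a change of -2.25 that passed with the block (adjusted p = 0.18 without, 0.0389 with). PAG1, the membrane anchor of the inhibitory kinase CSK, had a change of 0.81 (adjusted p = 0.309). The negative regulators PTPN6 and INPP5D had log2 changes of 0.08 and 0.02 (adjusted p = 0.937 and 0.983). When 1 library was left out at a time, the call of SRC held in 1 of 6 fits, the one without bulk replicate 2, and that of FGR in 1, the one without bulk replicate 3. Neither call held with voom or when the libraries were scaled to the reads outside the MTRNR2L rows.

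Downstream of SYK the changes centred near 0 and went both ways. Of 33 tested adaptors and effectors 3 were higher, PIK3CD and PIK3R5 among them, 1 was lower and 29 did not pass, with a median log2 change of -0.01. With the block 5 of these genes were higher and 6 lower. Over all tested genes the shares were 2.71% higher and 1.33% lower, and 8.25% and 7.71% with the block. PIK3CD, the leukocyte catalytic subunit of phosphoinositide 3-kinase, had means of 51.4 ± 13.0 CPM in bulk and 148 ± 22.2 CPM in LSC (log2 change 1.54, limma adjusted p = 0.0224). PIK3R5, a regulatory subunit of the gamma form, rose as well, from 10.2 ± 2.37 CPM in bulk to 48.1 ± 21.3 CPM in LSC (log2 change 2.15, adjusted p = 0.026). LAT2, an adaptor also called NTAL, fell from 55.2 ± 16.1 to 20.2 ± 2.43 CPM (log2 change -1.41, adjusted p = 0.0466). MALT1 and BCL10, partners in NF-kB signalling, had log2 changes of 1.26 and 0.56, and MALT1 passed with the block (adjusted p = 0.198 without, 0.0133 with). With 1 library left out at a time the calls of PIK3CD, PIK3R5 and LAT2 held in 2, 1 and 0 of 6 fits, PIK3CD without bulk replicate 2 or 3 and PIK3R5 without LSC replicate 2, with log2 changes of at least 1.42 and 1.84 and at most -1.20. The call of LAT2 was also lost when the libraries were scaled to the reads outside the MTRNR2L rows.

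Genes of antibody secretion and plasma cells were set beside IGJ and MZB1. Of 19 tested, 5 were higher and 14 did not pass, with a median log2 change of 1.36 (9 higher with the block). The surface receptor gene SLAMF7 rose from 15.2 to 22.2 CPM in the bulk libraries to 98.1 to 200.3 CPM in the LSC libraries (log2 change 2.85, SE 0.34, limma adjusted p = 0.0031). ERN1, the stress sensor that splices XBP1, the endoplasmic reticulum factor DERL3 and SEC11C, a signal peptidase subunit, had log2 changes of 3.16, 4.44 and 2.38 (adjusted p = 0.00346, 0.00468 and 0.00944). PDIA4, a protein disulfide isomerase, was the fifth (log2 change 2.06, adjusted p = 0.0309). HSP90B1, the chaperone with which MZB1 works, stood at 419 to 825 CPM in bulk and 720 to 1027 CPM in LSC (log2 change 0.47, adjusted p = 0.445). XBP1, a driver of secretion, had a change of 1.10 (adjusted p = 0.149, and 0.0186 with the block), and PRDM1, the plasma cell factor, one of -1.37 (adjusted p = 0.28). DERL3 also stands on the plasmacytoid list. With 1 library left out at a time the calls of SLAMF7, ERN1, DERL3 and SEC11C held in all 6 fits and that of PDIA4 in 2, without bulk replicate 2 or 3.

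**Figure D4:**
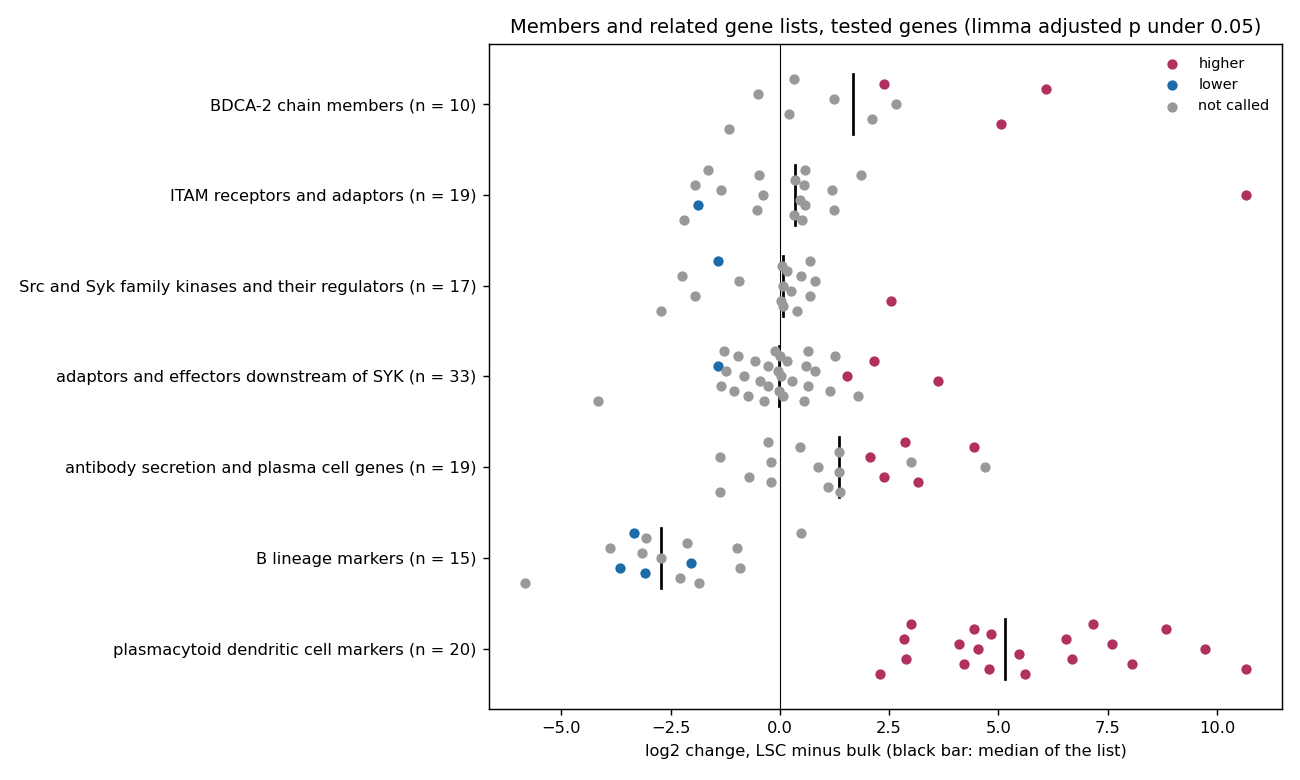
Log2 change, LSC minus bulk, of the members and of the tested genes of 6 related lists, with 1 point per gene, colour for the limma call at an adjusted p of 0.05 and a black bar at each list's median. The 3 signalling lists centre near 0 (medians 0.34, 0.08 and -0.01), the members have a median of 1.67, and the B lineage and plasmacytoid dendritic cell markers lie apart at -2.72 and 5.15.

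Markers of other cell types moved with several members, and their part in the members' values was not tested. Plasmacytoid dendritic cell markers were higher in LSC for 20 of 20 tested genes. Their summed level was 225, 265 and 496 CPM in bulk libraries of mice 1, 2 and 3, and 3333 to 5432 CPM in LSC. The 4 with the largest statistic were IRF8, CCDC50, SERPINF1 and LILRA4. That list was chosen with earlier results of these libraries known, so its direction is no independent evidence. The list also holds IL3RA, the gene of CD123, on which the LSC population was sorted. Its count among the 20 and its part of the summed level are no result separate from the gate. In bulk SCT had no read, while the other markers had at least 1 read over the 3 libraries.

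B lineage markers lay the other way and were highest in bulk replicate 3, as BLNK, LYN, CD79B, IGJ and MZB1 were among the bulk libraries. The summed plasmacytoid level, too, was highest in replicate 3 among the bulk libraries, so this pattern is not particular to B lineage markers. The summed level of B lineage markers over 16 of 19 genes was 675, 711 and 2868 CPM in bulk libraries of mice 1, 2 and 3. In LSC it was 180 to 260 CPM. Of 15 tested, 4 were lower in LSC and 11 did not pass, with a median log2 change of -2.72 (10 lower with the block, 7 with quantile normalization and 2 with voom). Those without the block were PAX5, EBF1, LEF1 and CD24, and PAX5 stood at 127, 59.9 and 491 CPM in bulk and 14.1, 6.97 and 18.5 CPM in LSC. With 1 library left out at a time these calls held in 3, 2, 2 and 1 of 6 fits, and in none of the 4 genes without LSC replicate 1 or 2. None of the 16 was at 0 in all libraries of a group. In that same library CLEC4C and SYK, at 3.52 and 176 CPM, were close to bulk replicate 2, at 3.47 and 172 CPM, and PLCG2 was the lowest of the bulk libraries.

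Among markers of other lineages, the monocyte, erythroid and granule lists had negative median log2 changes, of -1.50, -3.26 and -1.37. The median of B lineage markers was -2.72. For the mast cell and basophil, T and NK cell, and platelet lists the medians were 0.31, 0.07 and 0.17. The summed level of monocyte and macrophage markers was 3637 to 5671 CPM in bulk and 1050 to 2665 CPM in LSC (1 of 9 lower, VCAN, and 5 lower with the block). Of these 9 genes 8 had a negative change. The exception was CD68, at 15.9 to 33.2 CPM in bulk and 38.4 to 63.9 CPM in LSC (log2 change 1.09, limma adjusted p = 0.147). The summed level of erythroid markers was 144 to 753 CPM in bulk and 24.7 to 185 CPM in LSC (2 of 9 lower, HBB among them, and 8 lower with the block). Granule and neutrophil markers summed to 1847, 3862 and 153 CPM in bulk libraries of mice 1, 2 and 3, and to 805, 1340 and 101 CPM in LSC. Mast cell and basophil markers, whose cells also use FCER1G, LYN and SYK, summed to 124 to 970 CPM in bulk and 147 to 370.5 CPM in LSC. T and NK cell markers summed to 107 to 172 CPM and 121 to 160 CPM, and platelet markers to 19.7 to 33.4 CPM and 22.7 to 44.5 CPM. Neither limma on the deposited values without the block nor voom on the reads called a gene of these last 4 lists, of which 12, 10, 7 and 6 were tested in that order. At an unadjusted p under 0.05 there were 1, 3, 0 and 2 such genes in limma, and with quantile normalization 1 mast cell and basophil gene was lower. The calls of VCAN and HBB held in 1 and 2 of the 6 fits that left out 1 library, for both genes including the fit without LSC replicate 2, and that of VCAN was lost with quantile normalization. With the block 5 granule genes were lower, and 1 mast cell and basophil gene was higher and 4 were lower.

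**Figure D5:**
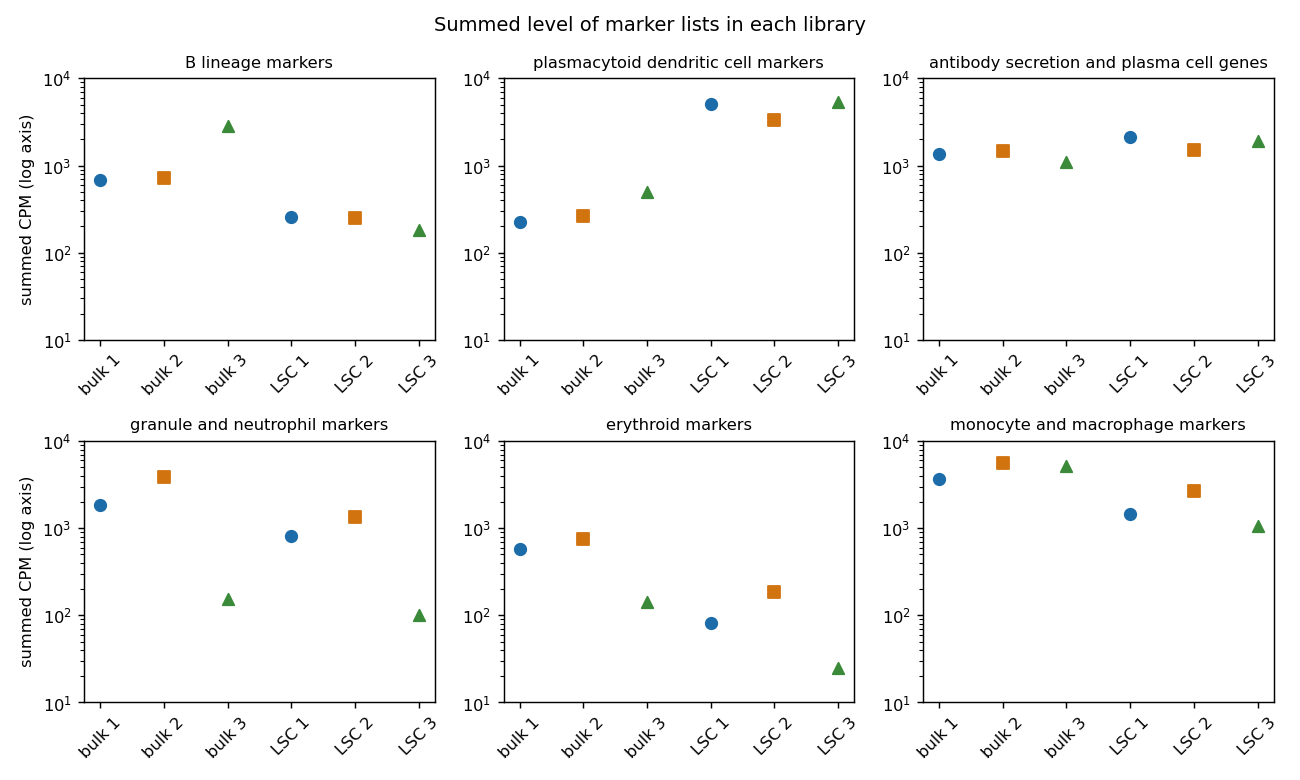
Summed CPM of 6 marker lists in each library on a log axis, with colour and shape for the mouse. B lineage markers peak at 2868 CPM in bulk replicate 3, plasmacytoid dendritic cell markers are at 3333 CPM or more in each LSC library, and granule markers are lowest in both libraries of mouse 3.

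Left without the bulk library of mouse 3, the members gave 6 genes higher in LSC (CLEC4C, FCER1G, IGJ, BLNK, LYN and MZB1), against 3 with all libraries. Of all 13755 tested genes 346 were then higher, against 373 with all libraries. Leaving out both libraries of mouse 3 gave 5 members and 252 of all tested genes higher. Without mouse 1 or mouse 2 the count of members was 2, CLEC4C and IGJ. Calls over all tested genes fell as well, to 37 higher without mouse 1 and 85 without mouse 2.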

How the data were processed

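Sorted bulk leukemic cells and LSC of 3 mice were profiled after amplification with a NuGEN Ovation kit, per the labels' protocols. RSEM, Bowtie2, edgeR and hg19 appear in the submitters' processing notes without versions or roles. Symbols and build are human although the samples carry a mouse organism label. Sample values deposited by the authors are log2 CPM with 1 shared floor (0.0197 CPM). The authors' deposited columns of log2 fold change, likelihood ratio score and p-value were used where named. No human sequence or coordinate was used here.

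CPM is the linear value minus the floor. Division by each column's step gave reads, whole within 0.1 for 100% of values. A filter of 1 CPM in 3 or more libraries kept 13755 genes, all 10 members included, and removed 137. The deposited log2 values were fitted with limma 3.58.1 (R 4.3.3, lmFit, eBayes with trend, two-sided, Benjamini-Hochberg, threshold 0.05). P-values measure the spread between libraries. Equal numbers mark 1 mouse by design, and deviations of such libraries from their group means had correlations of 0.33, 0.35 and 0.30, so the number pairs them. A blocked value is printed where it changed a call or a count by over 1.5 times. Reads are estimates without molecular identifiers. Members, the 12 lists and tests were chosen with earlier results of these data known. Named genes are the members, IL3RA, CD33, up to 4 genes per list with the largest moderated statistic, genes used in ratios, and the 3 nearest patterns of 5 members. NPM1, FCER1A, PTPN6, INPP5D, MALT1, BCL10, HSP90B1, XBP1, PRDM1 and PDIA4 were named after their values were seen. The fitting code was tested on simulated data. Alternatives were other pseudocounts, filters, scalings and variance models, voom on reads, the block, and leaving out libraries or mice. The block on 2 mice was added after seeing the data. Some results are not reported here.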

Additional observations from a re-analysis of the deposited data

How the results depend on the processing

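With all 6 libraries and no block, 373 genes were higher and 183 lower in LSC, and 3 members were higher and 0 lower. CLEC4C and IGJ passed in all 23 alternatives other than the block on 2 mice and FCER1G in 21, at changes of 3.70 to 5.34, 5.40 to 6.63 and 2.00 to 2.53. SYK, BTK and CD79B passed in none of their 23, 23 and 22, CD79B not being tested under the 5 CPM filter. LYN, BLNK, PLCG2 and MZB1 passed in 5, 6, 7 and 5 of theirs. With the mouse as a replicate block 1135 genes were higher and 1060 lower, with 6 members higher and 1 lower. The random effect gave 1090 and 983, and voom with the block 1216 and 1217, each again with 6 and 1 members. Genes lower numbered 302, 280 and 282 on the log2(CPM + 1) and log2(CPM + 5) scales and with array weights, each with 1 member lower, as under the 5 CPM filter. Array weights called 5 members higher. Without the trend 197 genes were higher and 54 lower. Leaving out 1 library gave 168 to 346 genes higher, 38 to 169 lower and 3 to 6 members higher. The log2 change of CD79B ran from -1.61 to 0.30 there and that of BTK from -0.094 to 0.65. Without mice 1, 2 and 3 in turn, 37, 85 and 252 genes were higher, 0, 8 and 74 lower, and 2, 2 and 5 members higher. Without mouse 1 the limma fit had 1728 genes at an unadjusted p under 0.05. BTK turned to -0.13 without mouse 1 and CD79B to 0.28 without mouse 3, with or without the block. The replicate block on 2 mice, added after seeing the data and with 1 residual degree of freedom, gave 386, 444 and 1747 genes higher and 344, 296 and 1567 lower without mice 1, 2 and 3. Members were then 4, 3 and 6 higher and 0, 0 and 1 lower. The causes were not tested. The share of calls that were higher was 67.1%, 51.7% with the block, and 78.5% without the trend. Depth limits CD79B and MZB1, with as few as 2 and 3 reads in a library.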
